A study of Homo sapiens with 14 samples.

Results

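AQP3 encodes aquaporin 3, a channel of the cell membrane, and its transcript was followed in 14 RNA libraries from 3 prostate cancer cell lines. AQP3 was 1 of 62703 genes in the count table. It was selected on values measured in these same libraries, namely its level in each line and its response to an inhibitor, so its own levels and changes are given below as a description with no test. Messenger RNA was measured by BRB-seq, in which samples receive a barcode at reverse transcription, are pooled, and are sequenced from the 3′ ends of their transcripts. LNCaP, 22Rv1 and PC3 cells were left to attach for 24 hours and then received SEL120-34A at 1.5 µM or the solvent DMSO alone for 3 days. SEL120-34A inhibits CDK8 and CDK19, the kinases of the Mediator complex, which links transcription factors to RNA polymerase II.

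There were 3 DMSO and 3 SEL120-34A libraries for LNCaP and the same numbers for 22Rv1, and PC3 had 1 library of each kind. LNCaP is an androgen-sensitive line from a lymph node metastasis that responds to the antiandrogen enzalutamide. 22Rv1 came from a xenograft that had relapsed after castration and is resistant to enzalutamide, and PC3, from a bone metastasis, grows without androgen. No genetic change was introduced in any group. The 3 libraries of a group carry replicate numbers, and the study's methods speak of biological replicates in general, but the labels do not say whether these libraries came from separate cultures, so the spread between them may be partly technical.

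AQP3 is an aquaglyceroporin, a member of the aquaporin family whose pore passes glycerol as well as water. It also passes hydrogen peroxide, which some cells use as a signal. The protein is known from the basolateral membranes of the kidney collecting duct and from epidermis and urothelium, and it has been described in prostate epithelium. Glycerol that enters a cell is phosphorylated by glycerol kinase and can then be built into glycerolipids or oxidised.

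AQP3 (ENSG00000165272.16) lies on the minus strand of chromosome 9 from 33441156 to 33447596 (GRCh38, GENCODE release 44), and 0 other annotated genes overlap it. Its canonical transcript has 6 exons. A 3′ tag of this transcript falls in or near exon 6, which ends in the 3′ UTR from 33441160 to 33442045. The sequence just upstream of the start site is shown because all results turn on the transcript level of this gene. These are the 250 bases before the start (chr9:33447594-33447843, minus strand, RefSeq promoter table, GRCh38.p14), with the TATA box and the GC boxes in capitals:

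AQP3: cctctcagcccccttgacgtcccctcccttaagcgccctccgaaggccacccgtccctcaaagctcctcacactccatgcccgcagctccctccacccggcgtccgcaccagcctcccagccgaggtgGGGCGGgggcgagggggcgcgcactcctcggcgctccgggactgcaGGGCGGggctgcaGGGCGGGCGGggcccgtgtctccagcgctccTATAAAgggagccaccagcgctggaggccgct

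The stretch had a GC content of 73.6%, against a median of 58% over all promoters of the table, and 87.5% of promoters were lower. TATAAA occurred once, 32 bases before the start, and was found in 11.1% of 27305 promoters. The GC box GGGCGG occurred 4 times between 122 and 59 bases before the start, the nearest pair overlapping each other. At least 1 GC box was present in 42.3% of promoters and 4 or more in 7.82%. The E-box CACGTG (6.49% of promoters), the AP-1 site TGANTCA (6.60%), the direct repeat of the nuclear receptor core site with a spacer of 1 base (0.0183%) and the steroid receptor palindrome (0.00366%) had 0 matches. Both strands were searched, and the motifs were picked after the sequence had been seen.

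In untreated LNCaP cells AQP3 was barely detected. The 3 DMSO libraries held 3, 1 and 2 AQP3 counts, which correspond to 4.23, 2.62 and 2.80 CPM (counts scaled to a common library size with TMM factors). The LNCaP SEL120-34A libraries held 0, 4 and 1 counts, or 0, 10.8 and 2.11 CPM. Treated and control libraries of LNCaP overlapped. Except for the treated replicate 2, all LNCaP libraries were at or below 3 counts, the floor used here, which stood at 3.27 to 12.9 CPM depending on the depth of a library.

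In 22Rv1 cells AQP3 was present without treatment and high with it. The 22Rv1 DMSO libraries held 15, 12 and 34 counts, or 29.4, 22.5 and 40.6 CPM. The 22Rv1 SEL120-34A libraries held 108, 83 and 70 counts, or 297.7, 356 and 199.7 CPM. Treated and control libraries of 22Rv1 did not overlap, and the lowest treated library was 4.92 times the highest control. The highest treated library was 15.9 times the lowest control. Although the treated 22Rv1 libraries were the shallower ones, they held 75.7% of the 345 AQP3 counts in all 14 libraries. In bulk samples a larger number of cells with AQP3 transcripts and more transcripts per cell cannot be told apart.

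In PC3 cells AQP3 was low. The PC3 DMSO library held 10 AQP3 counts, or 10.9 CPM (exact 95% Poisson interval 5.22 to 20.02). The PC3 SEL120-34A library held 2 counts, or 3.51 CPM (0.425 to 12.7). The intervals of these libraries overlap.

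**Figure D1:**
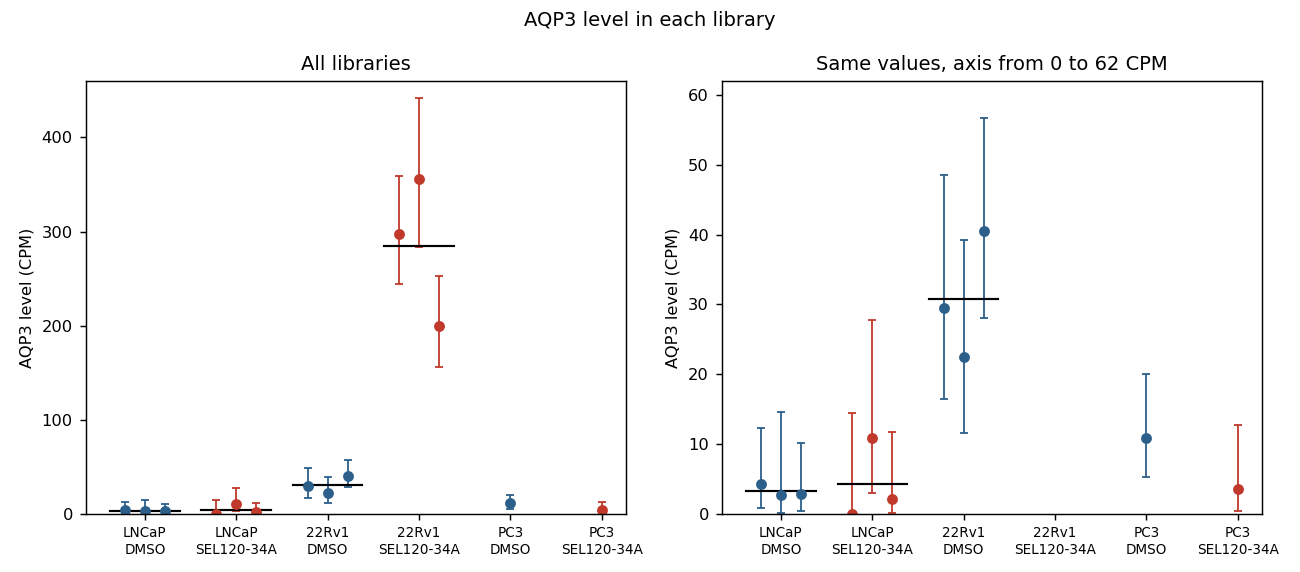
AQP3 level (CPM) in each of the 14 libraries by cell line and treatment, on a full axis (left) and on an axis from 0 to 62 CPM (right). Points are libraries, vertical bars their exact 95% Poisson intervals for counting error, and horizontal lines the means of 3 libraries. The treated 22Rv1 libraries sit between 199.7 and 356 CPM, above all others, and lie beyond the right-hand axis.

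Ordered by mean level, LNCaP DMSO came lowest with 3.21 ± 0.881 CPM (SD, n = 3), followed by PC3 SEL120-34A with 3.51 CPM and LNCaP SEL120-34A with 4.32 ± 5.75 CPM (n = 3). These 3 groups did not differ beyond their spread. PC3 DMSO followed at 10.9 CPM, next to the highest LNCaP SEL120-34A library at 10.8 CPM. 22Rv1 DMSO was at 30.8 ± 9.12 CPM (n = 3) and 22Rv1 SEL120-34A at 285 ± 79.1 CPM (n = 3). Both 22Rv1 groups lay above every LNCaP and PC3 library.

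The spread between libraries was then set beside counting error. In 22Rv1 the coefficient of variation of AQP3 was 29.6% with DMSO and 27.8% with SEL120-34A. Counting alone would give an SD of 7.37 CPM in the controls, close to the observed one, and of 30.2 CPM in the treated libraries, well below it.

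The size of the response was taken from an edgeR model of the 12 LNCaP and 22Rv1 libraries. In 22Rv1 AQP3 was 3.13 ± 0.25 (SE) higher on the log2 scale with SEL120-34A, or 8.77-fold. Summed counts of 261 against 61 gave a ratio of 8.51 (exact 95% interval 6.42 to 11.4, counting error only). This log2 change was the 5th highest of 7086 genes in the model and the 2nd among the 3886 with a mean of at least 20 counts per library. The 99th percentile of all 7086 changes was 1.40. Of the genes in the model, 4.15% had an adjusted p-value under 0.05 and were higher in treated 22Rv1, and 1.55% were lower. Since AQP3 was chosen for this change, nothing is read from its place among them.

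**Figure D2:**
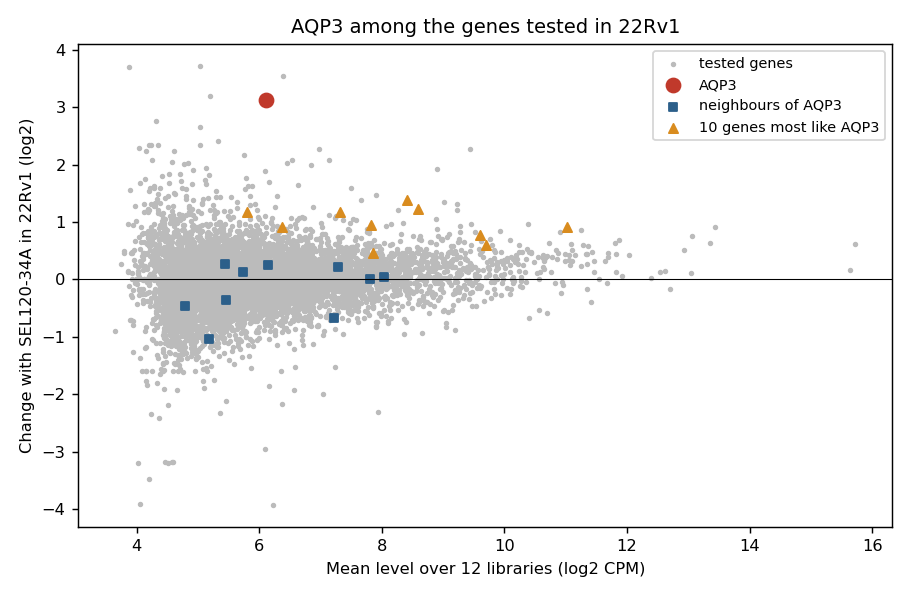
Change with SEL120-34A in 22Rv1 (log2) against mean level over the 12 LNCaP and 22Rv1 libraries (log2 CPM) for the 7086 genes of the model. AQP3, at 3.13, lies near the upper edge, while the 10 tested neighbouring genes on chromosome 9 lie between -1.04 and 0.27 and the 10 genes with the most similar profile between 0.46 and 1.38.

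In LNCaP the corresponding comparison was limited by the low number of AQP3 counts. Summed counts of 5 against 6 gave a ratio of 1.37 with an interval of 0.331 to 5.39, counting error only. A several-fold fall or rise inside that interval could not be told from no change. Like the interval for the ratio of 8.51 in 22Rv1 (6.42 to 11.4), it leaves out the spread between libraries. The intervals are therefore not set against each other. The model gave 0.45 ± 0.88 (SE) on the log2 scale. Without the treated replicate 2, which alone held 4 of the 5 treated counts, the value was -1.12. The change in LNCaP minus that in 22Rv1 was -2.68 ± 1.00 on the log2 scale and -4.24 without that library. In PC3 the ratio of the treated to the control library was 0.322 (0.0343 to 1.51), in the opposite direction to 22Rv1, with an interval that includes 1 and no replicate check.

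The lines also differed without treatment, a comparison that shares the 22Rv1 DMSO and LNCaP DMSO libraries with the responses above. Summed AQP3 counts in 22Rv1 DMSO were 9.76 times those of LNCaP DMSO (interval 4.24 to 27.6) after scaling, and the model gave a log2 difference of 3.17 ± 0.51 (SE). Between the untreated lines 49.0% of all genes in the model were called, at differences of any size, and AQP3 ranked 215th of 7086 from the highest. Against PC3 DMSO, 22Rv1 DMSO was 2.98 times higher (1.51 to 6.52). PC3 DMSO was 3.28 times higher than LNCaP DMSO (1.08 to 10.98), on 10 and 6 counts. The intervals in this paragraph cover counting error only, and PC3 DMSO was 1 library without a replicate.

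Cell identity was checked with marker genes. All 12 luminal prostate markers had counts in every group, and their summed level lay between 4320 and 4864 CPM in the control and 3405 and 3753 CPM in the treated LNCaP libraries. In 22Rv1 the sums were 1540 to 1737 CPM without and 1754 to 2167 CPM with the inhibitor. The PC3 libraries had 1767 and 2045 CPM, so this sum does not separate PC3 from 22Rv1. Single members differed. KLK4 was at 241 CPM in 22Rv1 DMSO and 4.35 CPM in PC3 DMSO, and FOLH1 at 148 and 6.53 CPM. KRT8 (175 and 473 CPM), KRT18 (552 and 687), EPCAM (242 and 482) and TMPRSS2 (6.24 and 20.7) were higher in PC3 DMSO. Basal and squamous epithelium, a place where AQP3 is known to be abundant, was covered by 11 markers. Of these, 0 had counts in 22Rv1 DMSO and 1 in 22Rv1 SEL120-34A, where the summed level was 0 to 5.51 CPM per library, against 87.1 and 140 CPM in the PC3 libraries. The defining markers KRT5 and TP63 were at 0 in all libraries. The 12 stromal and blood cell markers summed to 0 to 4.77 CPM in 22Rv1 DMSO and 5.51 to 8.58 CPM in 22Rv1 SEL120-34A, with 3 of 12 detected in each, and DCN and PTPRC were at 0. The part of these markers in the AQP3 result was not tested.

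Among the luminal markers, 2 of 12 rose and 0 fell in 22Rv1, with a list median of 0.02 on the log2 scale, and 2 rose and 3 fell in LNCaP, with a median of -0.15. The median of all genes was 0.00 in both lines. KLK4, a secreted kallikrein protease, rose in both lines, by 0.96 in 22Rv1 (edgeR adjusted p 1.81e-05) and 0.77 in LNCaP (0.00276). TMPRSS2, a membrane protease, rose by 1.89 in 22Rv1 on 2 to 10 counts per library (adjusted p 0.0246), a call lost in 6 of 20 alternatives and without any of 4 single 22Rv1 libraries (largest adjusted p 0.159, without SEL120-34A replicate 1). In LNCaP KLK3 (-1.82, adjusted p 1.35e-11), KLK2 (-1.37, 2.85e-08) and the keratin KRT18 (-0.46, 0.0374) fell, and FOLH1, which encodes prostate-specific membrane antigen, rose (0.47, 0.0255). KRT18 and FOLH1 each lost their call in 9 of 22 alternatives. With single libraries left out, the largest adjusted p was 0.229 for KRT18 (without LNCaP SEL120-34A replicate 2) and 0.167 for FOLH1 (without LNCaP SEL120-34A replicate 1). Of all genes, 4.15% were called higher and 1.55% lower in 22Rv1, and 1.99% higher and 0.776% lower in LNCaP.

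The other channels of the family were nearly absent. Of 14 aquaporin genes, 5 had counts and only AQP3 passed the filter on low counts. AQP3 passed through its 22Rv1 libraries and failed with LNCaP alone, and it was chosen for its levels, so nothing is read from its passing. In LNCaP it was as low as its relatives, with 6 and 5 summed counts in DMSO and SEL120-34A. AQP11, an aquaporin of intracellular membranes, had 10 and 7 summed counts in LNCaP DMSO and SEL120-34A, 3 and 1 in 22Rv1, and 4 and 2 in the PC3 libraries. The water channel AQP1 had 2 and 0 counts in LNCaP, 5 and 3 in 22Rv1 and 0 and 1 in PC3. AQP5, a water channel of glands, had 1 count each in LNCaP DMSO and 22Rv1 DMSO, and AQP4, the main water channel of brain, had 1 count in PC3 SEL120-34A. The other aquaglyceroporins AQP7, AQP9 and AQP10 had 0 counts in every library. The family members other than AQP3 were too low for the model, so differences among them or with treatment were not tested.

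Genes that handle glycerol inside the cell were examined next. Of 12 genes of glycerol phosphorylation and oxidation, 5 entered the model. In 22Rv1 1 rose and 0 fell, with a median log2 change of 0.28, beside 4.15% higher and 1.55% lower among all genes. ALDH3A2, an aldehyde dehydrogenase best known for oxidising long-chain fatty aldehydes, was the gene that rose. Its levels in 22Rv1 were 151, 155 and 156 CPM with DMSO and 345, 378 and 317 CPM with SEL120-34A. The groups did not overlap (log2 change 1.17 ± 0.16 SE, adjusted p 1.78e-06), and the call held in all 22 alternatives. In LNCaP ALDH3A2 went from 81.3 ± 10.1 to 63.4 ± 20.6 CPM (log2 change -0.29 ± 0.22, adjusted p 0.620). The difference between the lines itself passed the threshold (-1.46 ± 0.27, adjusted p 0.00210), as it did for 0.734% of all genes. ALDH3A2 was also higher in untreated 22Rv1 than in untreated LNCaP, by 0.92 on the log2 scale (adjusted p 3.08e-05). The PC3 libraries had 62.1 CPM with DMSO and 64.9 CPM with SEL120-34A.

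None of the other 4 tested genes of that list was called in either line. In LNCaP the list had 0 calls by edgeR, DESeq2 and limma, and 0 genes at an unadjusted p under 0.05. Among all genes edgeR called 1.99% higher and 0.776% lower in LNCaP, and 13.5% had an unadjusted p under 0.05. The most abundant uncalled members were AKR1A1, an aldehyde reductase (22Rv1 log2 change -0.40, adjusted p 0.386), and PGP, a phosphatase that can release glycerol from glycerol phosphate (0.28, adjusted p 0.442). Glycerol kinase itself (GK) was too low for the model. Its counts, looked up after the other results were known, summed to 4 and 4 in LNCaP, 18 and 3 in 22Rv1 and 6 and 1 in PC3 for DMSO and SEL120-34A. Since the libraries differed in depth, these sums are not levels. In the same order the mean levels were 1.87 ± 2.13 and 3.41 ± 3.20 CPM (SD) in LNCaP and 9.77 ± 2.90 and 3.78 ± 4.38 CPM in 22Rv1. The PC3 libraries had 6.53 and 1.75 CPM.

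Glycerolipid synthesis had 10 tested genes of 19, of which 0 were called by edgeR in 22Rv1 and 0 in LNCaP. Among all genes 4.15% were called higher and 1.55% lower in 22Rv1, and 1.99% and 0.776% in LNCaP. With so few genes tested, 0 calls is near these shares. The median log2 changes were -0.15 and 0.18. At an unadjusted p under 0.05 there were 2 and 1, beside 19.1% of all genes in 22Rv1 and 13.5% in LNCaP, and DESeq2 and limma called 0. PTPMT1, a mitochondrial phosphatase of cardiolipin synthesis, changed by 0.27 in 22Rv1 (adjusted p 0.318), and AGPAT1, which acylates lysophosphatidic acid, by -0.46 (0.223). Lipolysis and lipid droplet genes, 6 tested of 17, likewise had 0 calls in both lines by all 3 tools and 1 gene at an unadjusted p under 0.05 in each line. Their medians were -0.23 in 22Rv1 and -0.22 in LNCaP. PNPLA2, the lipase that starts triglyceride breakdown and so frees glycerol, had a log2 change of -0.66 in 22Rv1 (adjusted p 0.178) and -0.11 in LNCaP (0.902). HILPDA, an inhibitor of that lipase, had -0.45 (adjusted p 0.369) and -0.26 (0.744).

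The enzymes that make and remove hydrogen peroxide, another solute of the channel, were mostly uncalled. Of 18 producers 2 were tested, SOD1 and SOD2, the cytosolic and mitochondrial superoxide dismutases. Neither was called in either line by the 3 tools. Of all genes, 19.1% in 22Rv1 and 13.5% in LNCaP had an unadjusted p under 0.05, against 0 of these 2. Their log2 changes in 22Rv1 were 0.24 (edgeR adjusted p 0.442) and -0.26 (0.701). Of 15 removers 11 were tested, and 1 rose in each line with 0 falls. Among all genes 4.15% rose and 1.55% fell in 22Rv1, and 1.99% rose and 0.776% fell in LNCaP, so 1 of 11 is near the background. The medians were 0.18 in 22Rv1 and 0.10 in LNCaP.

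TXN, thioredoxin, which supplies electrons to peroxiredoxins, was the remover that rose in 22Rv1. Its levels were 353, 346 and 354 CPM with DMSO and 540, 631 and 533 CPM with SEL120-34A, without overlap (log2 change 0.70 ± 0.13 SE, adjusted p 5.94e-04). The call held in all 22 alternatives. In LNCaP TXN had a log2 change of 0.28 (adjusted p 0.321), and the difference between the lines was not called (-0.42, adjusted p 0.379). GPX4, which reduces lipid peroxides, rose in LNCaP by 0.47 ± 0.13 (503 ± 41.8 against 686 ± 62.8 CPM, adjusted p 0.0404), a call lost in 10 of 22 alternatives. Leaving out the LNCaP controls 2 (0.173) or 3 (0.205), the treated LNCaP replicates 1 (0.202) or 2 (0.206), or the treated 22Rv1 replicate 1 (0.0650) ended it. The most abundant uncalled members were PRDX6 (22Rv1 log2 change 0.21, adjusted p 0.444) and PRDX2 (0.06, 0.862), both peroxiredoxins.

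Of 26 genes of osmotic and cell volume regulation, 14 were tested. In 22Rv1 2 rose and 1 fell, with a median log2 change of -0.12, and in LNCaP 1 rose and 0 fell, with a median of 0.06. The shares among all genes were 4.15% and 1.55% in 22Rv1 and 1.99% and 0.776% in LNCaP. The genes that rose encode beta subunits of the sodium pump. ATP1B1 was at 43.2, 41.2 and 38.2 CPM in 22Rv1 DMSO and at 93.7, 68.7 and 74.2 CPM in 22Rv1 SEL120-34A (log2 change 0.99 ± 0.24, adjusted p 0.00834). In LNCaP, where ATP1B1 was more abundant, it rose as well, from 225 ± 35.8 to 345 ± 35.8 CPM (0.64 ± 0.15, adjusted p 0.00897). Treated and control libraries overlapped in neither line. ATP1B3 rose in 22Rv1 by 0.49 ± 0.14 (adjusted p 0.0249).

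SLC6A6, the taurine transporter, fell in 22Rv1 (log2 change -1.36 ± 0.42, adjusted p 0.0423). Its control libraries were at 62.8, 63.6 and 22.7 CPM and its treated ones at 22.0, 12.9 and 17.1 CPM, so that replicate 3 of the controls lay next to the treated range. The ATP1B1 call was lost in 2 of 22 alternatives in 22Rv1 and in 5 of 22 in LNCaP, the ATP1B3 call in 6 of 22 and the SLC6A6 call in 6 of 19. The adjusted p of ATP1B1 in 22Rv1 was 0.0584 without DMSO replicate 3 and 0.108 without SEL120-34A replicate 1, and in LNCaP it was 0.0891 without DMSO replicate 2 and 0.0845 without SEL120-34A replicate 2. That of ATP1B3 was 0.0794 and 0.117 without 22Rv1 DMSO replicate 2 or 3, and 0.0976 and 0.130 without 22Rv1 SEL120-34A replicate 1 or 2. That of SLC6A6 was 0.0905 to 0.177 without any of 5 single 22Rv1 libraries, DMSO replicate 3 being the one whose omission kept the call. Of the uncalled genes, the chloride channel regulator CLNS1A had a 22Rv1 log2 change of 0.06 (adjusted p 0.872).

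Nuclear receptors for lipid, retinoid and corticoid ligands, classes of factor to which AQP3 has been reported to respond in other tissues, had 5 tested genes of 14. By edgeR, DESeq2 and limma 0 were called in 22Rv1 and 0 in LNCaP, and 1 gene per line had an unadjusted p under 0.05. By edgeR 4.15% of all genes were called higher and 1.55% lower in 22Rv1, and 1.99% and 0.776% in LNCaP. An unadjusted p under 0.05 was found for 19.1% and 13.5% of all genes. With so few genes tested, 0 calls is near the background. RARG, a retinoic acid receptor, had a log2 change of -0.66 in 22Rv1 (edgeR adjusted p 0.193) and RXRB, a partner of many such receptors, one of -0.07 (0.942). Of 8 genes for surface partners and sorting of the channel 4 were tested, and 0 were called in either line by any of the 3 tools or at an unadjusted p under 0.05. The recycling GTPase RAB11A had a 22Rv1 log2 change of 0.16 (adjusted p 0.624) and the early endosome GTPase RAB5A one of 0.03 (0.969).

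**Figure D3:**
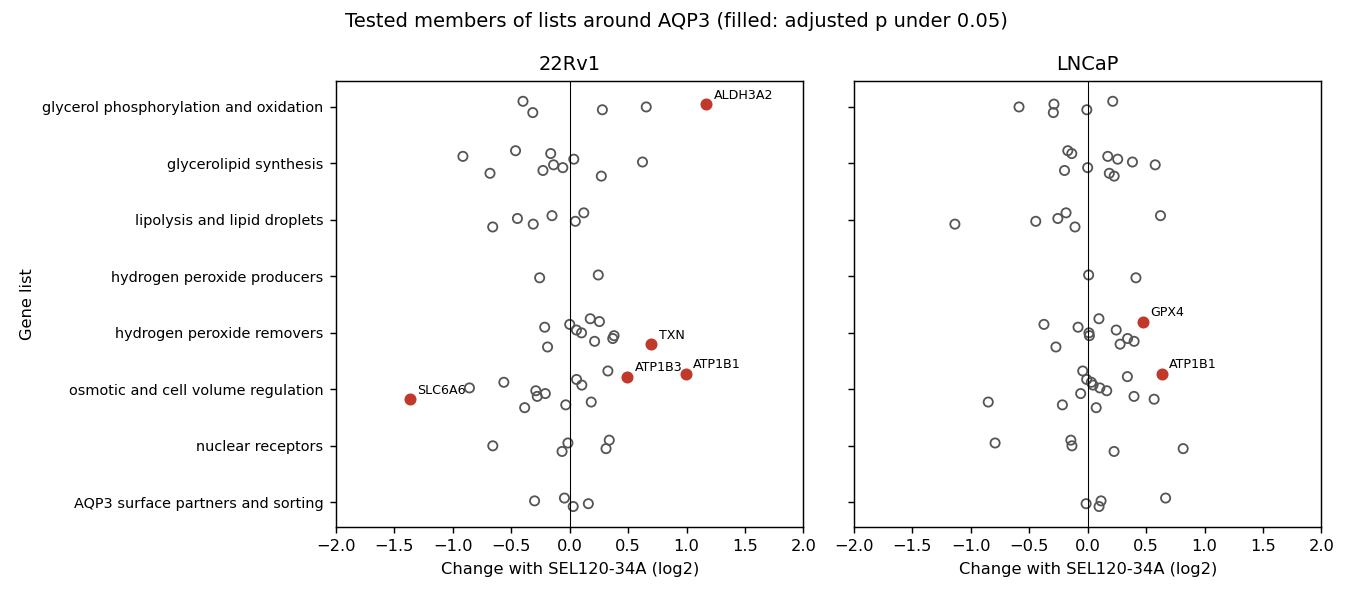
Change with SEL120-34A (log2) of each tested member of 8 gene lists in 22Rv1 (left) and LNCaP (right). Each circle is a gene, and filled circles passed an adjusted p of 0.05. ALDH3A2, TXN, ATP1B1 and ATP1B3 rose and SLC6A6 fell in 22Rv1, while GPX4 and ATP1B1 rose in LNCaP.

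Untreated 22Rv1 and LNCaP were also compared for these lists, with 49.0% of all genes called as the background. The numbers called were 3 of 5 for glycerol phosphorylation and oxidation, 5 of 10 for glycerolipid synthesis, 3 of 6 for lipolysis and lipid droplets, and 1 of 2 for peroxide producers. They were 6 of 11 for peroxide removers, 9 of 14 for osmotic and volume regulation, 2 of 5 for nuclear receptors and 3 of 4 for surface partners. Among luminal markers 10 of 12 were called, 9 of them lower in 22Rv1. PNPLA2, HILPDA, SOD1, PGP and PTPMT1 were not called between the untreated lines.

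Of the 10 tested neighbours of AQP3 on chromosome 9, 0 were called higher in 22Rv1. Among all genes 4.15% were, so 0 of 10 is near the background. Within 500 kb there were 14 other protein-coding genes, of which 10 were tested, 2 had 0 counts (AQP7 and SPINK4), and ANKRD18B and PRSS3 were too low. The 22Rv1 log2 changes of the 10 ranged from -1.04 to 0.27 with a median of 0.03. NOL6, a ribosome biogenesis factor whose start lies 26.3 kb upstream of that of AQP3, had the highest value (0.27 ± 0.39, adjusted p 0.772). B4GALT1, a galactosyltransferase, had the lowest (-1.04 ± 0.42, adjusted p 0.144). UBE2R2, which encodes a ubiquitin-conjugating enzyme, was the neighbour that was called in 22Rv1, as lower, beside 1.55% of all genes.

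UBE2R2 was at 143, 152 and 177 CPM in 22Rv1 DMSO and at 77.2, 107 and 114 CPM in 22Rv1 SEL120-34A, a fall without overlap (-0.67 ± 0.19, adjusted p 0.0292) that was lost in 6 of 22 alternatives. The adjusted p was 0.134 without 22Rv1 DMSO replicate 3, and 0.259 and 0.0767 without 22Rv1 SEL120-34A replicate 1 or 2. In LNCaP the neighbours ranged from -0.17 to 1.13 with a median of 0.25. Of all genes, 1.99% were called higher and 0.776% lower in LNCaP. APTX, a DNA repair factor, rose there by 1.13 ± 0.32 (adjusted p 0.0414), a call lost in 10 of 21 alternatives, and its groups overlapped. Leaving out the LNCaP controls 1 (0.134) or 2 (0.157), or the treated LNCaP replicates 2 (0.190) or 3 (0.228), ended the call. DESeq2 and limma called 0 neighbours in either line. Over all genes DESeq2 called 242 in 22Rv1 and 90 in LNCaP, of 7086, and limma 201 and 41, of 9638. The chaperone gene DNAJA1, the splicing factor gene SMU1, BAG1, CHMP5, NFX1 and UBAP2 were called in neither line, with 22Rv1 log2 changes from -0.47 to 0.25. Between the untreated lines 6 of the 10 were called, near the 49.0% of all genes. By edgeR 0 neighbours differed in response between the lines, beside 0.734% of all genes. At an unadjusted p under 0.05 there were 3, beside 11.4% of all genes. DESeq2 and limma called 0 neighbours for this difference, and over all genes only 37 and 5.

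**Figure D4:**
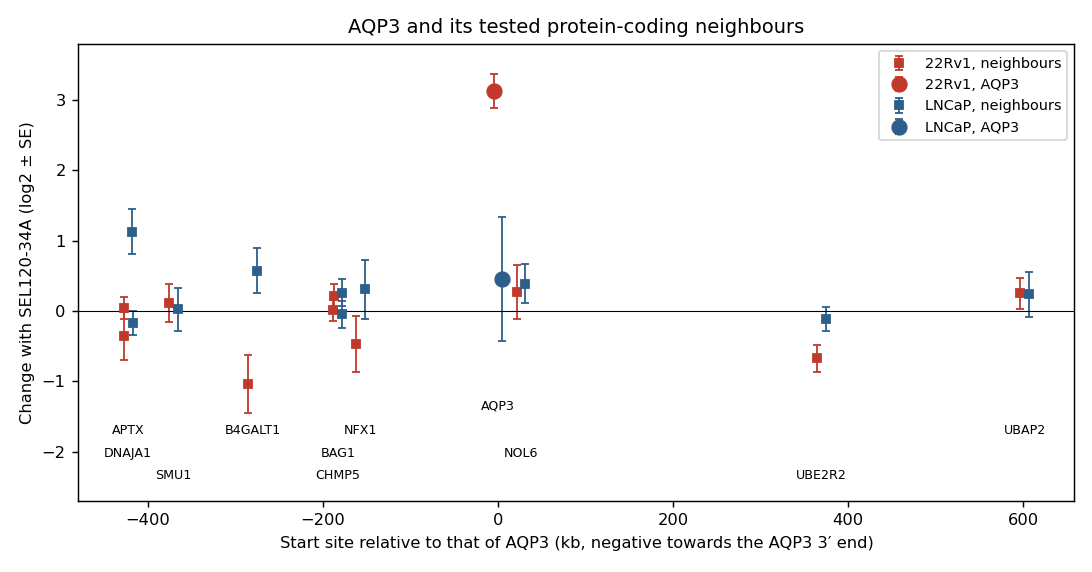
Change with SEL120-34A (log2 ± SE) of AQP3 and its 10 tested protein-coding neighbours against the distance of their start sites from that of AQP3 (kb). AQP3 in 22Rv1 stands at 3.13, and the neighbours in 22Rv1 lie between -1.04 and 0.27.

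The genes with the profile most like that of AQP3 were found by Pearson correlation of log2 CPM over the 12 LNCaP and 22Rv1 libraries, among 3845 genes with a mean of at least 20 counts. They were ALDH3A2 (r = 0.98), AP3S1 (0.98), PEBP1 (0.98), TKT (0.97), PCBD1 (0.97), TEX264 (0.97), CPSF4 (0.97), SERPINE2 (0.96), DAZAP2 (0.96) and AUP1 (0.95). The next gene had r = 0.95 as well, 74 genes exceeded 0.9 and 388 exceeded 0.8, so the 10 do not stand apart. The libraries form 4 groups, and within groups, after removal of group means, r ranged from 0.169 for TEX264 to 0.872 for ALDH3A2. The median over all ranked genes was 0.0147. The 10 were selected on these same libraries, which favours a high r within groups too, so nothing is read from this contrast. AQP3 also had only 0 to 4 counts per library in LNCaP SEL120-34A.

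Among the 12 LNCaP and 22Rv1 libraries these 10 genes, like AQP3, had their lowest means in LNCaP, higher ones in 22Rv1 DMSO and the highest in 22Rv1 SEL120-34A, as the selection required. Their 22Rv1 changes were smaller, from 0.46 for AUP1 to 1.38 for AP3S1, a subunit of the AP-3 sorting adaptor. TKT encodes transketolase of the pentose phosphate pathway, PEBP1 an inhibitor of RAF kinase, TEX264 a receptor for autophagy of the endoplasmic reticulum, CPSF4 a subunit of the polyadenylation machinery and SERPINE2 a secreted protease inhibitor. SERPINE2 went from 59.3 ± 6.59 to 136 ± 9.22 CPM in 22Rv1, and from 10.6 ± 3.19 to 19.3 ± 7.71 CPM in LNCaP.

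The PC3 libraries did not enter the correlation. There the log2 ratios of treated to control lay between -0.23 for AUP1 and 0.37 for CPSF4, while that of AQP3 was -1.63 on 2 and 10 counts. The levels in PC3 did not follow a single order. DAZAP2 was at 14.15 and 14.03 CPM in PC3, below all LNCaP libraries, whereas PCBD1, a pterin dehydratase, was at 1015 and 1210 CPM, above the 22Rv1 DMSO mean of 727 CPM. Of the promoters of the 10 genes 8 held a GC box and 0 held TATAAA, beside 42.3% and 11.1% of all 27305 promoters. These counts were not tested.

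**Figure D5:**
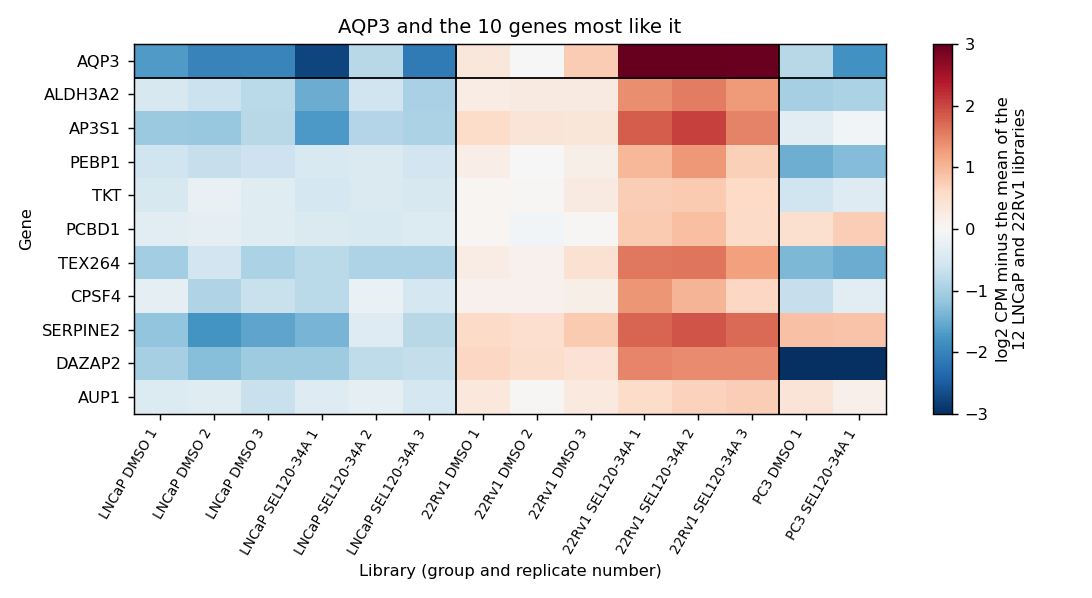
Level of AQP3 and of the 10 genes most like it in each of the 14 libraries, as log2 CPM minus the mean of the 12 LNCaP and 22Rv1 libraries, with colours capped at -3 and 3. By selection the 3 treated 22Rv1 libraries are the highest of these 12 for each gene, AQP3 spans the widest range, and DAZAP2 is lowest in PC3.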

How the data were processed

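RNA from 14 libraries was sequenced by BRB-seq. Reads were aligned and counted by the authors with STARsolo (GRCh38.p13, GENCODE release 43), and the deposited table held raw counts for 62703 genes. Whether molecular identifiers were collapsed, and how strand was treated, is not given in the sources used here, so intervals and floors (3 counts) cover counting error only. A second deposited table held log2 CPM values for 9638 genes, which TMM factors and a prior count of 2 gave back to within 4.97e-14. Totals were 246063 to 909176 counts per library.

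One edgeR 4.0.16 (R 4.3.3) model gave 4 group means to the 12 LNCaP and 22Rv1 libraries, with TMM factors, the low-count filter (7086 genes), 8 residual degrees of freedom and the quasi-likelihood F-test, after being tested on simulated data. The common biological coefficient of variation was 11.1%. Each SE of a log2 change was obtained from this test, as the absolute change divided by the square root of F. P-values were adjusted over the 7086 genes by the Benjamini-Hochberg method, with a threshold of 0.05. Levels are CPM with TMM factors over 14 libraries. Ratios of summed counts carry exact 95% Clopper-Pearson intervals and single libraries exact Poisson intervals. PC3, with 1 library per arm, was not tested. Coordinates are from GENCODE release 44.

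AQP3, the 12 gene lists, the tests and the motifs were chosen with earlier results of these data known. Named genes were the aquaporins with counts, the members of each list past the threshold in a treatment comparison (at most 4) and the 2 most abundant others, tested protein-coding genes within 500 kb, and the 10 best-correlated genes. GK was named outside this rule. The result of 1 gene under this rule is not reported here. Fits were repeated with a block for the replicate number, with size factors of DESeq2 or library totals in place of TMM, without the filter or with at least 10 counts everywhere, for each line separately, with PC3 included, with libraries thinned to the smallest total, by the Wald test of DESeq2 1.42.0, by limma-trend (limma 3.58.1) on the deposited log2 table, and leaving out each library.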

Additional observations from a re-analysis of the deposited data

Results flagged for a closer look

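The response of ALDH3A2 to SEL120-34A differed between LNCaP and 22Rv1 by a test of the difference itself. The log2 change in LNCaP minus that in 22Rv1 was -1.46 (SE 0.27, edgeR adjusted p 0.00210). All 3 treated 22Rv1 libraries were above all 3 controls, and in LNCaP treated and control libraries overlapped. The difference lay between -1.67 and -1.12 over 21 alternatives. It missed the threshold in 2 of them, with libraries thinned to the smallest total (-1.12, adjusted p 0.128) and by limma-trend on the deposited log2 table (-1.52, adjusted p 0.0690). Thinning leaves fewer counts, and the cause of the second was not tested. Groups of 3 libraries are too small for a check of single outlying libraries.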

How the results depend on the processing

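AQP3 in 22Rv1 changed by 2.98 to 3.18 on the log2 scale over 9 alternatives and by 2.94 to 3.41 with each library left out. In LNCaP the value lay between -0.01 and 0.49 over 8 alternatives and between -1.12 and 0.93 with a library left out, -1.12 being without SEL120-34A replicate 2. The difference in change between the lines ranged from -4.24, without the same library, to -2.18, and the untreated difference from 2.87 to 3.43 with a library left out and from 2.27 (limma-trend) to 3.42 over the other alternatives, with 2.80 at equal depth. The PC3 log2 ratio was -1.68 from library totals. With at least 10 counts in every library AQP3 itself was removed, and with LNCaP alone it failed the filter, so those alternatives gave no value.

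Counts of called genes moved more. In 22Rv1 404 genes were called, against 260 with no filter, 242 by DESeq2, 201 by limma-trend and 158 to 446 with a library left out, the lowest without SEL120-34A replicate 2. In LNCaP 196 became 122 with at least 10 counts in every library, 121 at equal depth, 90 by DESeq2, 41 by limma-trend and 87 to 239 with a library left out, the lowest without SEL120-34A replicate 2. Between the untreated lines 3473 became 1503 with at least 10 counts in every library, 2036 at equal depth and 3038 to 3723 with a library left out. For the difference in response 52 became 29, 31 and, by limma-trend, 5, and 24 to 57 with a library left out, the lowest without LNCaP SEL120-34A replicate 1. Fewer genes were tested with the stricter filter (2870) and at equal depth (4984) than in the main model (7086). More were tested with no filter (21395) and by limma-trend (9638). The numbers called are therefore not shares, and a lower number need not be a lower share. The other causes were not tested. Library totals shifted the median over all genes (-0.14 in 22Rv1, -0.08 in LNCaP) and turned the split of 294 higher and 110 lower into 144 and 231 in 22Rv1, and that of 141 and 55 into 99 and 90 in LNCaP.

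With the replicate number as a block, AQP3 changed by 3.09 in 22Rv1 and 0.31 in LNCaP, its untreated difference was 3.42 and the difference in change -2.78, and 479, 275, 2311 and 77 genes were called. Deviations of same-numbered libraries correlated with r of -0.05 to 0.12, not every library correlated best with its own number, and the numbers were not taken as pairs. Of 16 calls for named list members and neighbours, 6 held under every alternative and 0 reversed, and of 142 uncalled ones 4 were called under at least 1. The 10 genes most like AQP3 kept 2 members by Spearman correlation, 5 over all 14 libraries and 6 to 10 with a library left out.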
